A study of Drosophila melanogaster with 62 samples.

Results

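The 31 genes described here encode proteins of the synaptic vesicle cycle and of transmitter synthesis, transport and breakdown in Drosophila melanogaster. They are a hand-chosen list, matched by gene symbol and gene identifier, out of 17753 genes in the authors' segment annotation or the head expression table. The list was chosen with earlier results of these data known. The study sequenced poly(A) RNA from male embryos in stranded libraries and compared wild type with mutants of elav, fne and Rbp9, genes of RNA-binding proteins. The early embryos, 14 to 16 h old, comprised 3 libraries of wild type, 3 of each single mutant (elav, fne, rbp9), 3 of elav-fne, 3 of elav-rbp9, and 3 of the triple mutant elav-fne-rbp9. The late embryos, 18 to 22 h old, comprised 4 libraries of wild type, 3 of elav, 4 of fne and 5 of elav-fne. The labels of 3 fne-rbp9 libraries name the late window and an early table, so their stage is unclear. In a second experiment, nFne and elav-nFne mutants were sequenced with their own wild type, in 3 libraries per genotype and stage, and 2 further libraries came from wild-type adult male heads. Library titles call the embryo samples pooled, the alleles are not named in the labels, and whole embryos hold muscle, gut, epidermis and other tissues beside neurons. Replicates are not stated to come from separate crosses, so the authors' p-values may measure technical spread alone.

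A nerve terminal releases transmitter when a calcium sensor on the vesicle lets SNARE proteins fuse the vesicle with the membrane at a scaffold called the active zone. The vesicle membrane is then taken back by clathrin-dependent endocytosis and refilled by transporters. ELAV, FNE and RBP9 are related proteins that bind U-rich RNA in neurons, and ELAV is known to let transcripts pass early cleavage sites, so that neurons make longer 3′ UTRs. The name nFne is understood to stand for a nuclear form of FNE, and the comparisons ask which member of the family keeps neuronal 3′ ends in place when others are lost. In the authors' deposited tables of the first experiment each gene has at most 1 entry per mutant, for a stretch of the gene called a segment or for several segments joined. The value is a log2 fold: how much of the gene's output used the segment in the mutant, relative to wild type. All entries have adjusted p-values below 0.0001 and folds at or below -0.75, so a gene that is not listed may have changed less, changed upwards or had too few reads. The embryo tables hold no values per library, so no spread between libraries can be shown beside the folds.

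The listed segments of 12 of these genes were of more than one kind. For 8 of the 12, namely Syt1, Syt7, nSyb, Rop, Rbp, lap, Ace and Vmat, the early entry lay wholly in annotated 3′ UTR and directly followed another segment of the gene, as a longer version of the same terminal exon would (at Syt1, the first of its 2 stretches). For the other 4, Dap160, Rim, nwk and Csp, the listed segment held an annotated stop codon, so its use bears on the coding end of the protein as well as on the 3′ UTR. The listed entries of the 12 genes had a median width of 1388 bases, from 429 bases at Rop to 4855 bases at Vmat.

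**Figure D1:**
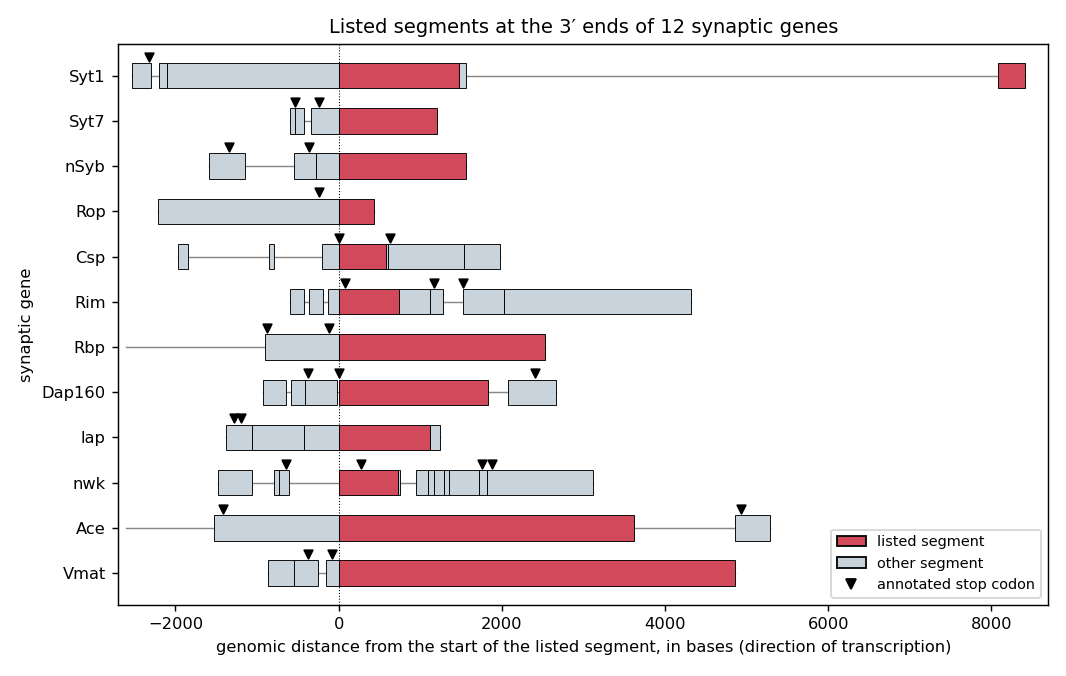
Segments at the 3′ ends of the 12 listed genes, drawn to scale by genomic distance in bases from the start of the listed segment, in the direction of transcription. Up to 3 segments before the listed one are drawn and cut at the left edge of the plot, red boxes are listed segments (elav-fne late for Csp, elav-fne-rbp9 early for the others), and triangles mark annotated stop codons. Triangles lie on or inside the red box at Csp, Rim, Dap160 and nwk, and outside it at the other 8 genes.

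The 8 genes whose early entry lay wholly in 3′ UTR are described first, in dm6 coordinates and on the annotation of Ensembl release 115. The Syt1 entry (FBgn0004242, minus strand) joined segment 20 at 2L:2779267-2780740 with segment 22 at 2L:2772327-2772653, for 1801 bases in all. An annotated transposable element on the opposite strand lies between these segments and meets segment 22 at its edge. Of 8 coding transcripts of Syt1, 3 reach these segments, after 2126 to 2227 bases of 3′ UTR, and 5 end before them. The Vmat segment (FBgn0260964, minus strand, 2R:13513132-13517986) begins 81 bases into the 3′ UTR, so that the annotated transcripts without it have very short 3′ UTRs. It overlaps the gene CG13330 on the opposite strand, and whether the authors' counts used strand is not given in the sources used here. The Ace segment (FBgn0000024, minus strand, 3R:13224625-13228241) spans 3617 bases and starts 1416 bases into the 3′ UTR. The Rbp segment (FBgn0262483, plus strand, 3R:15400012-15402543) spans 2532 bases and starts 116 bases into it. The nSyb segment (FBgn0013342, minus strand, 3L:1630348-1631911) spans 1564 bases and is reached by 4 of 8 coding transcripts. The lap segment (FBgn0086372, plus strand, 3R:7199704-7200818) spans 1115 bases, and all 7 transcripts whose 3′ UTR covers it run on past its end. Syt7 (FBgn0039900, minus strand, 4:278685-279896) had 1212 bases listed, which all of its 5 annotated coding transcripts hold. The annotation thus has no coding transcript of Syt7 that ends before this segment. Rop (FBgn0004574, minus strand, 3L:4136359-4136787) had 429 bases listed, in 1 of its 2 coding transcripts.

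Among the 4 segments with a stop codon, that of Dap160 (FBgn0023388, minus strand, 2L:21135276-21137106) is an alternative terminal exon of 1831 bases. In the annotation 2 of 6 coding transcripts end in it, 3 end before it and 1 beyond it. The Rim segment (FBgn0053547, minus strand, 3R:17876332-17877066) holds the stop codon of 7 of 14 coding transcripts, and none of the 14 ends there. The nwk segment (FBgn0263456, plus strand, 3L:9142573-9143297) has 278 coding bases among its 725 and holds the stop codon of 1 of 10 coding transcripts, none of which ends in it. The Csp segment (FBgn0004179, plus strand, 3L:22271763-22272348) holds the stop codon of 3 of 6 coding transcripts, 1 of which ends within it. At Rim and Csp no segment that the authors marked as 3′ UTR comes before the listed one, and more distal segments follow it. At Rim, nwk and Csp, therefore, a lower fold does not by itself mean a shorter 3′ UTR.

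Loss of elav alone in early embryos lowered segment use at 3 synaptic genes, Syt1, Dap160 and Ace. In the authors' deposited table Syt1, the calcium sensor for fast release, fell by 2.90 on the log2 scale (adjusted p = 2.4e-135), which ranked 21 of 185 entries. Dap160, the intersectin scaffold of endocytosis, fell by 1.15 in the authors' deposited table (adjusted p = 1.5e-12). Ace, the enzyme that breaks down acetylcholine, fell by 0.83 in the authors' deposited table (adjusted p = 5.0e-17) and ranked 171 of 185. The 3 are 10.7% of the 28 genes of the list with at least 2 annotated segments, and 1.47% of all 12624 such genes were listed. Because the genes were chosen with earlier results known, a higher share here and in the other mutants may follow from that choice. Of the 4980 such genes with 10 TPM or more in heads, 2.97% were listed, a comparison chosen after seeing the data, and which genes the authors tested is not given in the sources used here. These head levels are of adults and do not measure expression in the embryos. The median fold of the 3 was -1.15, nearer 0 than the median of -1.41 over all entries in the authors' deposited table.

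The same 3 genes, at identical segments, were listed in elav-rbp9 early embryos, where 1.18% of genes were listed and 2.51% of those with 10 TPM or more in heads. The authors' deposited table gave Syt1 a fold of -3.03, Dap160 -1.19 and Ace -0.82. Each lies within 0.13 of its value in elav, but the comparisons share wild-type libraries and have no error on the folds. Of the 28 synaptic genes 0 were listed in fne early, where 0.459% of genes were (1.04% of those with 10 TPM or more in heads), and 0 in rbp9 early (0.0475% and 0.0803%). In fne-rbp9 the count was also 0 (0.309% and 0.643%), as in fne late (0.0634% and 0.0803%). At such low shares a count of 0 among 28 genes says little about them, and the authors' deposited tables hold no unadjusted p for genes outside the lists.

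Combined loss of elav and fne in early embryos brought 6 synaptic genes into the list, 21.4% of the 28 with segments, against 1.86% of all genes and 4.0% of those with 10 TPM or more in heads. Syt1, Dap160 and Ace were again listed at the same segments, and Vmat, Rim and lap were added. Vmat, the transporter that loads dopamine, serotonin and other monoamines into vesicles, fell by 1.98 on the log2 scale in the authors' deposited table (adjusted p = 6.2e-99). Rim, a scaffold that links vesicles and calcium channels at the active zone, fell by 1.31 (adjusted p = 6.3e-09), and lap, the AP180 adaptor for clathrin, fell by 1.02 (adjusted p = 1.3e-18), both in the authors' deposited table. Syt1 had -6.77 in the authors' deposited table and ranked 7 of 235 entries, while Dap160 had -1.66 and Ace -1.06. All 3 genes shared with the elav table had a lower fold in elav-fne, and elav-fne minus elav was -3.87 at Syt1, -0.51 at Dap160 and -0.23 at Ace. Tables were fitted separately, and the mean normalised counts behind these entries in the authors' deposited table for elav-fne were 0.532 to 0.583 times those for elav. The authors also deposited a fitted use score per condition. For Syt1 it went from 33.9 in wild type to 14.1 in elav, and from 23.5 to 4.87 in elav-fne. How this score relates to the fold is not given in the sources used here, and the size of the Syt1 difference was not tested.

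The list of the elav-fne-rbp9 triple mutant held 11 of the 28 synaptic genes, or 39.3%, against 2.25% of all genes and 4.8% of those with 10 TPM or more in heads. At a log2 fold of -1 or lower it held 6, as many as elav-fne early. The 5 genes that were not in the elav-fne early list were Syt7, nSyb, Rop, Rbp and nwk, and none of them was in any other table of the first experiment. Syt7, a synaptotagmin of slower release and vesicle replenishment, fell by 3.24 on the log2 scale in the authors' deposited table (adjusted p = 3.4e-09). The F-BAR protein gene nwk, which restrains growth of the neuromuscular synapse, fell by 2.71 in the authors' deposited table (adjusted p = 2.5e-08). Its mean normalised count of 39.9 was the lowest of any synaptic entry in the authors' deposited tables, and that of Syt7 was 71.2. At the synaptic genes listed in both, mean normalised counts for the triple mutant were 1.44 to 1.78 times those for elav-fne early. The absence of Syt7 and nwk from the elav-fne list therefore does not show a difference between the mutants.

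The other 3 additions had smaller folds. The vesicle SNARE gene nSyb fell by 0.87 in the authors' deposited table with a mean normalised count of 1389.6 (adjusted p = 1.8e-16). Rop, the Munc18 partner of syntaxin, fell by 0.86 in the authors' deposited table (adjusted p = 2.3e-19). Rbp, the RIM-binding protein of the active zone, fell by 0.99 in the authors' deposited table (adjusted p = 8.2e-12). Folds at these 3 genes are close to the -0.75 at which the lists begin, and that they are not listed in elav-fne does not show a difference between the mutants. The genes shared with elav-fne early went either way. For the triple mutant the authors' deposited table gave Vmat -3.47, Dap160 -2.23 and Ace -1.40, each lower than in elav-fne. Syt1 had -4.67, Rim -0.92 and lap -0.77 in the same authors' deposited table, each nearer 0 than in elav-fne. The fitted use score of Syt1 went from 27.9 in wild type to 5.70 in the triple mutant in the authors' deposited table. For elav-fne early it went from 23.5 to 4.87. The folds alone therefore do not show a weaker decrease of Syt1 in the triple mutant. The median difference over the 6 genes was -0.04, with 3 of the 6 lower in the triple mutant.

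**Figure D2:**
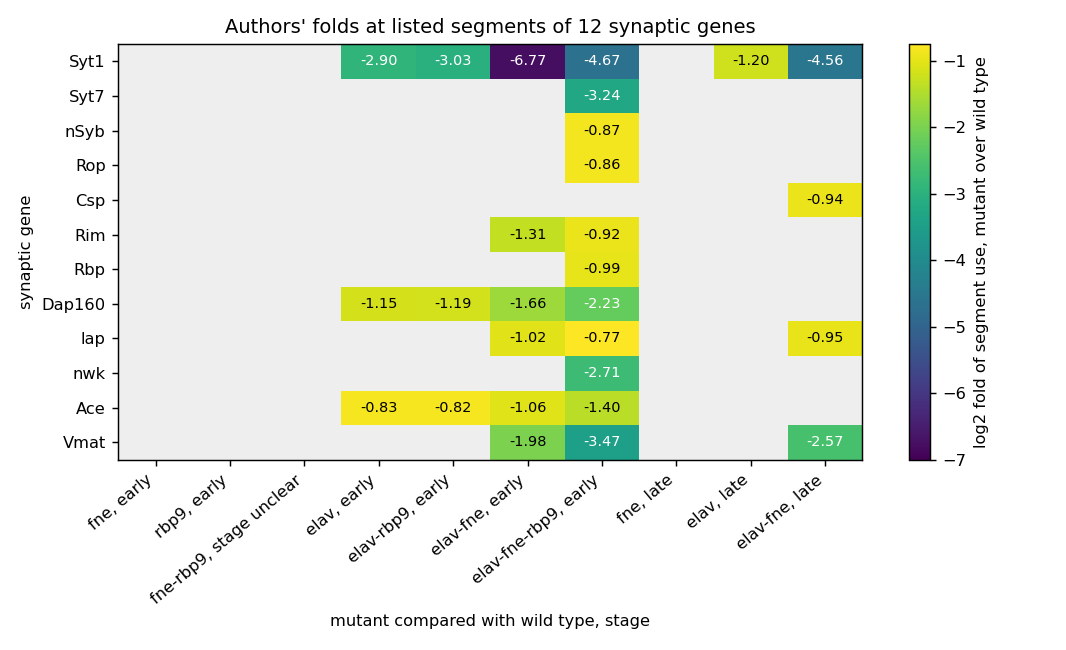
Log2 folds of segment use, mutant over wild type, from the authors' deposited tables, for 12 synaptic genes in rows and the 10 comparisons of the first experiment in columns; grey cells are genes that are not listed. The elav early column has 3 filled cells, elav-fne early 6 and elav-fne-rbp9 early 11, and the fne, rbp9 and fne-rbp9 columns are empty.

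Late embryos were compared for elav, fne and elav-fne, and the lists of all genes were shorter late than early for each of these mutants. Median normalised counts of listed entries were lower late too, although those of Syt1 were higher. The medians late and early were 93.7 and 164.4 in elav, 102.8 and 144.0 in fne, and 75.0 and 105.1 in elav-fne. Numbers of libraries also differ, so absence from a late list does not by itself show a weaker effect. The elav late list held 1 synaptic gene, Syt1, where 0.578% of genes were listed and 1.16% of those with 10 TPM or more in heads. It had -1.20 in the authors' deposited table (adjusted p = 1.2e-49) at the segments that had -2.90 early. The elav-fne late list held 4, or 14.3% of the 28, against 1.36% of all genes and 2.89% of those with 10 TPM or more in heads. At a log2 fold of -1 or lower it held 2 of the 4. There Syt1 had -4.56 (adjusted p = 1.6e-59), Vmat -2.57 (adjusted p = 9.9e-35) and lap -0.95 (adjusted p = 6.8e-05) in the authors' deposited table. Csp, the cysteine string protein that acts as a chaperone for SNARE proteins, fell by 0.94 in the authors' deposited table (adjusted p = 6.0e-24) and was in no early list. Dap160, Ace and Rim, all listed in elav-fne early, were not listed late. The Syt1 fold was 2.21 nearer 0 late than early in elav-fne, and elav-fne minus elav was -3.36 for it in late embryos. In the authors' deposited tables its fitted use score went from 23.5 in wild type to 4.87 in elav-fne early. In elav-fne late it went from 14.1 to 2.49. The folds alone therefore do not show a weaker decrease of Syt1 late. Early and late segments differ at lap and Vmat. The late Vmat entry joins 4822 bases of segments 12 and 13, including 69 coding bases, and the late lap segment is 1238 bases long, so their folds at the 2 stages are not of like stretches.

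The gene values deposited for the second experiment cover only 174 genes, taken from the elav early list, which include Syt1, Dap160 and Ace. Their presence follows from their decrease in elav, so the direction in elav-nFne is not an independent finding. Values there are a weighted log2 fold over the segments of a gene and the smallest adjusted p over them, so a gene with several segments has more chances to pass. In nFne early embryos none of the 3 passed an adjusted p of 0.05, and 2.89% of the 173 genes with a fold passed lower. The authors' deposited table gave Syt1 -0.28 (adjusted p = 0.52), Dap160 -0.14 (adjusted p = 0.9) and Ace -0.06 (adjusted p = 0.87). In elav-nFne early embryos Syt1 fell by 3.85 (adjusted p = 3.7e-46) and Ace fell by 1.05 (adjusted p = 0.00037) in the authors' deposited table. Dap160 had -0.97 without passing (adjusted p = 0.28) in the authors' deposited table, where 82.1% of the 173 genes passed lower.

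In the second experiment's late embryos, Syt1 had the lowest fold of the 3 in elav-nFne, as in early embryos, and the fold nearest 0 in nFne. In nFne late, where 14.5% of genes passed lower, the authors' deposited table gave Syt1 -0.01 (adjusted p = 0.73), Ace -0.29 (adjusted p = 0.39) and Dap160 -0.83 (adjusted p = 0.076). All 3 passed in elav-nFne late (1 of them with a fold of at least 1 in size), where 90.7% of the 172 genes with a fold did, with -2.68 for Syt1, -0.83 for Dap160 (adjusted p = 0.00031) and -0.58 for Ace (adjusted p = 0.0025) in the authors' deposited table. Dap160 thus had the same fold to 2 decimals in nFne and elav-nFne late embryos, and passed in 1 of them. The difference between these mutants was not tested, since the files give no error for it. In elav-nFne late embryos Ace and Dap160 lay nearer 0 than the median of -1.44 over the genes with a fold in the authors' deposited table, and Syt1 lay below it.

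**Figure D3:**
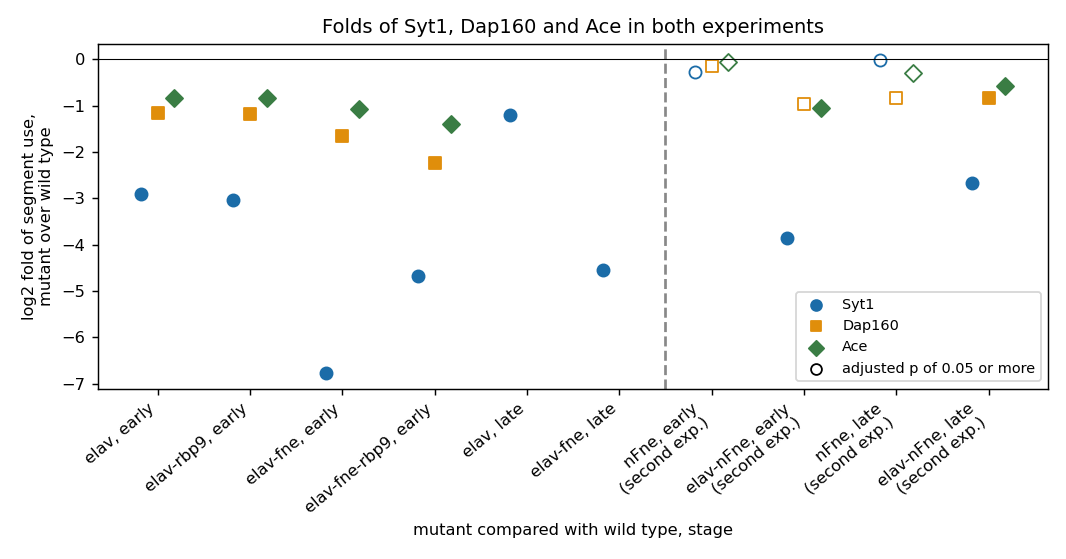
Log2 folds of Syt1, Dap160 and Ace from the authors' deposited tables, for 6 comparisons of the first experiment and 4 of the second; open symbols did not pass an adjusted p of 0.05, and a missing symbol is a gene that is not listed. Syt1 lies lowest wherever elav is lost, between -1.20 and -6.77, and its nFne symbols lie near 0.

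Over the 10 tables of the first experiment, 12 of the 28 synaptic genes were listed at least once, against 3.29% of 12625 genes with segments and 6.77% of those with 10 TPM or more in heads. Such counts are no independent sign of enrichment, since the genes were chosen with earlier results of these data known. By role, 5 of the 9 genes of the fusion step with segments were among them, Syt1, Syt7, nSyb, Rop and Csp. The others were Syt4, a synaptotagmin of other vesicle types, Snap25, the SNARE on the plasma membrane, unc-13, which primes vesicles, and cpx, the complexin clamp. Of the 4 active zone scaffolds Rim and Rbp were listed, and brp (Bruchpilot) and Liprin-alpha were not. None of the vesicle genes Rab3, Syn (synapsin) and Syngr (synaptogyrin) was listed. Of 6 endocytosis genes Dap160, lap and nwk were listed, and shi (dynamin), EndoA (endophilin) and Synj (synaptojanin) were not. Of 6 transmitter genes Ace and Vmat were listed, and Gad1, ChAT, VAChT and VGlut, which make GABA and acetylcholine or load acetylcholine and glutamate, were not. Syx1A (syntaxin) and the stoned genes stnA and stnB have no segment in either annotation used here and could not have been listed.

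All 31 genes have values in the head table except that stnA and stnB are listed at 0 TPM in both libraries. Those 2 genes share 1 dicistronic transcript and have the same exon length of 8332 bases in the table, so the 0 gives no level for them. The highest level was that of nSyb, with 291 TPM in replicate 1 and 296 TPM in replicate 2. It was followed by Gad1, the GABA-making enzyme, with 255 and 277 TPM, and by cpx with 255 and 253 TPM, whose ranges overlap. Syt1 had 189 and 199 TPM, Snap25 170.4 and 169 TPM, Rop 158 and 168 TPM and shi 158 and 162 TPM. Next came nwk (109 and 126 TPM), Csp (114 and 112 TPM), Syngr (106 and 106 TPM) and Syt4 (98.3 and 109 TPM). Next below were Rab3 (94.3 and 103 TPM), EndoA (88.7 and 85.6 TPM) and Syn (81.5 and 80.2 TPM).

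The scaffolds and most transmitter genes had lower levels. The values in replicates 1 and 2 were 63.0 and 64.4 TPM for brp, 59.1 and 65.4 TPM for Vmat, 54.2 and 54.4 TPM for unc-13, 51.5 and 54.2 TPM for Ace, and 49.9 and 50.5 TPM for lap. Close together followed Dap160 (47.8 and 49.8 TPM), Syx1A (47.5 and 46.5 TPM), VGlut (47.8 and 46.0 TPM), Syt7 (44.5 and 48.2 TPM) and ChAT (45.7 and 46.4 TPM), whose ranges meet or nearly meet. Synj had 38.9 and 39.0 TPM, VAChT 35.0 and 34.6 TPM, Rbp 30.96 and 32.18 TPM and Rim 27.8 and 29.9 TPM. The lowest of the detected genes was Liprin-alpha with 14.6 and 15.8 TPM. VAChT lies within the ChAT locus, where a shared exon can make the division of reads uncertain. The replicates differed by at most 1.15-fold, at nwk. The 12 listed genes had a median of 57.5 TPM, and the 16 unlisted genes with segments 84.0 TPM, with ranges that overlap (28.8 to 293 and 15.2 to 266 TPM). TPM is scaled by length, but which length was used is not given in the sources used here. The length deposited beside the values counts exonic bases per gene, from 2282 at Snap25 to 22598 at unc-13. Levels of different genes are therefore only roughly comparable. In bulk heads fewer cells of a type and less RNA per cell cannot be told apart.

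**Figure D4:**
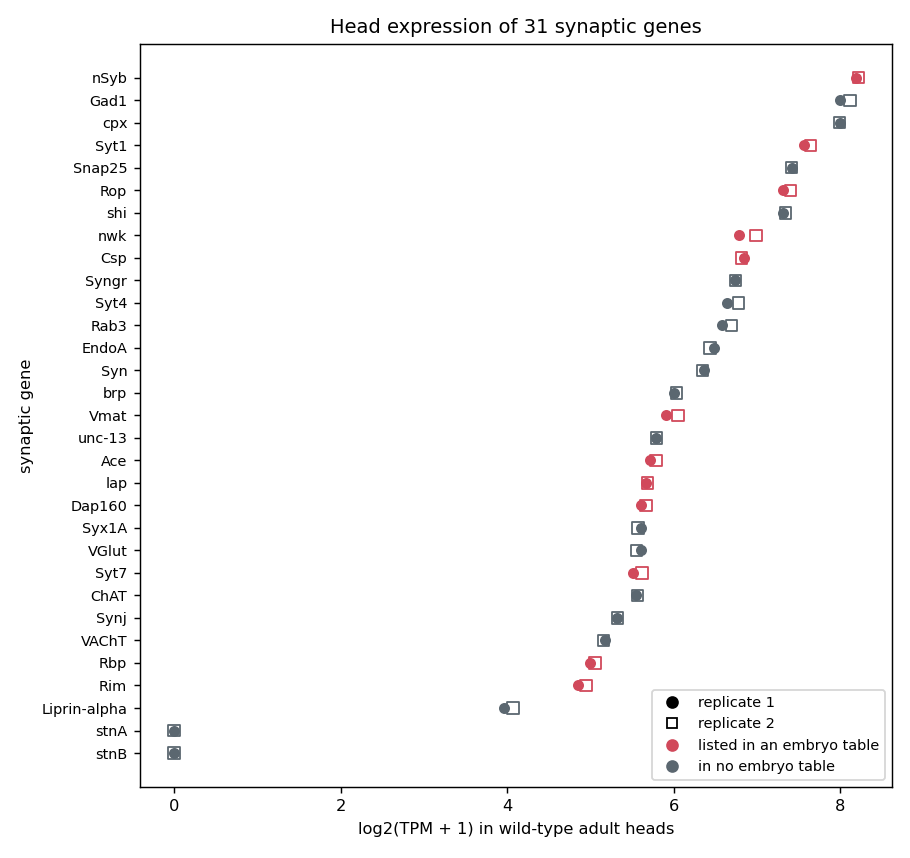
Expression of the 31 synaptic genes in 2 libraries of wild-type adult male heads on the log2(TPM + 1) scale; filled circles are replicate 1, open squares replicate 2, and red marks genes listed in at least 1 embryo table. Red and grey genes are mixed along the range, from nSyb at the top to Liprin-alpha, and stnA and stnB lie at 0.

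The tissue label of the head libraries was read against marker genes. The 5 neuronal markers summed to 596 and 616 TPM, and 3 of them (nSyb, Syt1 and brp) are themselves on the list. The 5 photoreceptor markers summed to 14171 and 14793 TPM and the 4 muscle markers to 2133 and 2545 TPM, and the ovary markers osk, vas and bam were all under 1 TPM. Glial markers summed to 337 and 293 TPM, fat body markers to 298 and 248 TPM and hemocyte markers to 68.0 and 61.5 TPM, with Yp1 under 1 TPM in both libraries. The levels above are those of whole heads, and the part of these other cells in them was not tested.

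These genes are long in segments and in 3′ UTR beside other genes. Among the 28 with segments the median was 14 segments in the early annotation, from 2 at Rop and VAChT to 46 at unc-13, against a median of 4 over 12624 genes with at least 2. The longest annotated 3′ UTR of a single transcript had a median of 2495.5 bases among the 28, against 259 over the 11129 of those genes with an annotated 3′ UTR. It was 8785 bases at cpx, 5033 at Ace, 4936 at Vmat, 4391 at brp, 4370 at VAChT, 4011 at Syt1, 3669 at unc-13, 3631 at Syn and 3458 at Rim. Next came VGlut with 2964 bases, Rbp with 2648, nwk with 2637, nSyb with 2636, lap with 2516, Rab3 with 2475, EndoA with 2324, Liprin-alpha with 2078 and Csp with 1975. The shortest were shi with 1868 bases, Dap160 with 1820, Syt7 with 1656, Syngr with 1523, Syt4 with 1497, Snap25 with 1462, ChAT with 1417, Gad1 with 1288, Synj with 797 and Rop with 662. Syx1A has 1968 bases in the same annotation, stnA 5525 and stnB 1684. The median was 2636.5 bases for the 12 listed genes and 2201 for the 16 others.

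Segments that the authors marked as 3′ UTR numbered 1 at Syt4, VGlut and VAChT and 2 or more at the other 25. A single 3′ UTR length is annotated at 6 of the 16 unlisted genes (Syt4, Snap25, Syngr, Gad1, VGlut and VAChT) and at none of the 12 listed ones. Genes with a single annotated length offer little alternative 3′ end that could be listed, so this contrast may follow from the annotation. Length alone did not separate the listed genes: cpx, brp and unc-13 have longer 3′ UTRs than Rim, with 7, 3 and 2 annotated lengths, and were in no list, and Rop has the shortest of all and was listed.

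**Figure D5:**
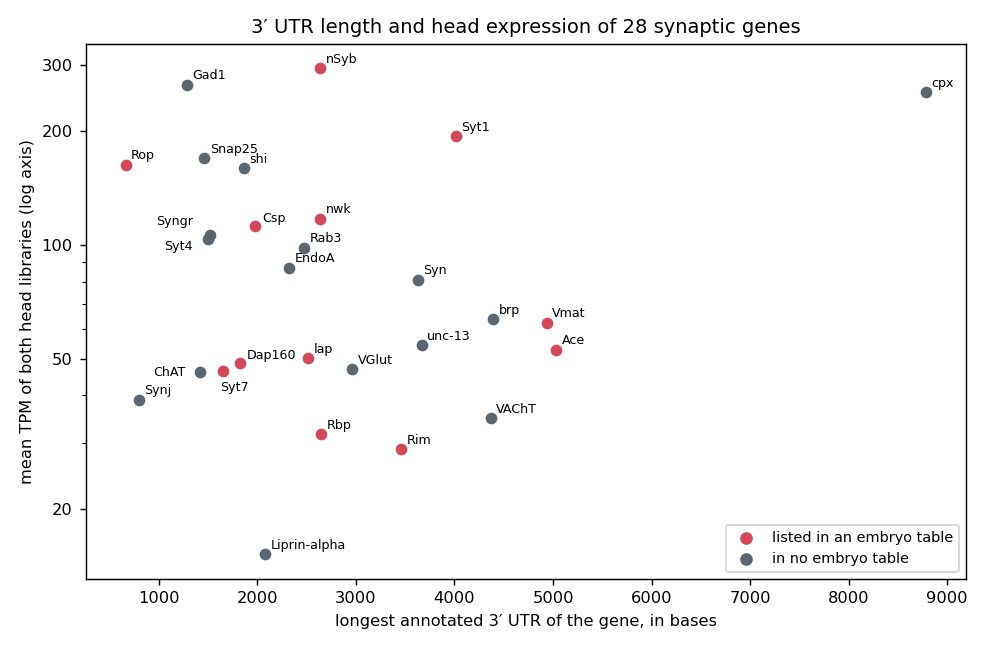
Longest annotated 3′ UTR of a single transcript in bases (horizontal axis) against the mean TPM of 2 wild-type head libraries (vertical, log axis) for the 28 synaptic genes with annotated segments. Red genes, listed in at least 1 embryo table, range from Rop at 662 bases to Ace at 5033, and grey genes, in no table, from Synj at 797 to cpx at 8785.

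Other genes of the synapse, on 3 lists compiled beside the main one, were looked up in the same tables. Of 37 further presynaptic and vesicle genes with at least 2 segments, 5 were in at least 1 table, where 3.29% of all genes were. In elav-fne early, where 1.86% of all genes were listed, there were 4 of the 37, Sap47 (-1.50), Rab3-GEF (-1.27), CASK (-1.25) and alphaSnap (-1.04), in the authors' deposited table. Sap47 is a synapse-associated protein, Rab3-GEF an exchange factor for Rab3, CASK a scaffold kinase and alphaSnap a factor that takes SNARE complexes apart. In elav-fne-rbp9, where 2.25% of all genes were listed, there were 3 of the 37, Rab3-GEF (-1.89), Sap47 (-1.83) and CASK (-0.78), in the authors' deposited table. In the authors' deposited tables Sap47 (-0.84) and CASK (-1.15) were listed in elav early, where 1.47% of all genes were. CASK (-0.78) was listed in elav-rbp9, where 1.18% of all genes were, in the authors' deposited table. Rab3-GEF (-1.05) and CASK (-0.78) were listed in elav-fne late, where 1.36% of all genes were, in the authors' deposited table. The entries of Rab3-GEF and CASK differ in width between tables, so their folds are not all of like stretches. The proton pump accessory gene ATP6AP2 was the only gene of that list in fne early, with -0.81 in the authors' deposited table. In fne early 0.459% of all genes were listed.

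Of 18 further genes of transmitter synthesis and transport 0 were in any table, and of 41 transmitter receptor genes 3 were. With 3.29% of all genes in at least 1 table, counts this small say little about these lists. GluClalpha, a glutamate-gated chloride channel, had -0.95 in elav early, -0.87 in elav-rbp9, -1.38 in elav-fne early, -1.42 in elav-fne-rbp9 and -1.35 in elav-fne late in the authors' deposited tables. The nicotinic receptor subunit gene nAChRalpha1 had -0.84 in elav-fne early and the octopamine receptor gene Octbeta2R -0.78 in elav-fne-rbp9 in the authors' deposited tables. In the second experiment GluClalpha, CASK and Sap47 did not pass in nFne at either stage, with folds from -0.05 to -0.54 in the authors' deposited tables. In elav-nFne early embryos, where 82.1% of genes passed lower, GluClalpha had -1.98 (adjusted p = 0.00014), CASK -1.78 (adjusted p = 4e-15) and Sap47 -1.13 without passing (adjusted p = 0.13) in the authors' deposited table. In elav-nFne late embryos, where 90.7% passed lower, all 3 passed, with -0.96 for GluClalpha, -1.21 for CASK and -0.90 for Sap47 in the authors' deposited table.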

How the data were processed

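Libraries were stranded and made from poly(A) RNA, per the labels. The embryo files used here hold the authors' own deposited comparisons, with log2 folds, p-values and adjusted p-values, a mean normalised signal (a normalised count) and a fitted use score per entry, per the file headers. The testing tool is not given in the sources used here, and the depth of the embryo libraries is unknown. The 2 ELAV iCLIP libraries were not analysed here. The head values were deposited as TPM, and the 17753 genes of that table sum to 360087 and 365410 TPM. Both sums are below the total that TPM has by definition, and the reason is not given in the sources used here. Levels and limits in TPM are therefore on the deposited scale. Segments were written with rtracklayer 1.40.5, per the file headers, on build dm6 (per the submitters' processing notes).

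Every entry was placed on its segments by number. Annotation came from Ensembl release 115 (BDGP 6.54, the same coordinates). No test was made here: calls are the authors'. The background was all genes with at least 2 segments. The genes and lists were chosen with earlier results of these data known. Every gene of the list was named, and genes of 3 other lists if listed in any table; 6 symbols of those lists were not matched. Interval code was tested on simulated data. Calculations used Python 3.11.15, numpy 2.4.6, pandas 2.3.3 and matplotlib 3.10.9.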

Additional observations from a re-analysis of the deposited data

How the results depend on the processing

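The count of synaptic genes in each table of the first experiment stayed within 1.5 times under an adjusted p of 1e-06, a mean normalised count of 50 and at least 90% annotated 3′ UTR. A log2 fold of -1 or lower left 6 of 11 in elav-fne-rbp9 early and 2 of 4 in elav-fne late. In the second experiment the same limit on size left 1 of 3 in elav-nFne late, and an adjusted p of 0.01 kept each count. The median difference between elav-fne late and early, 0.07 over 3 genes, was 2.21 with identical segments only, where Syt1 alone was left. Of 3′ UTR lengths, the median of 3050.5 bases in the authors' marked segments became 2667.5 in merged annotated 3′ UTR and 2495.5 in the longest transcript (an alternative chosen after seeing the data); the cause was not tested. The median of 14 segments was 14.5 in the late annotation. The median head percentile of 94.3 was 89.3 among genes at 1 TPM or more, and 94.0 to 94.5 with either library left out; the median log2(TPM + 1) of 5.98 was 5.91 to 6.03. Leaving out embryo libraries and the search for poly(A) signals were not run, for want of values per library and of a genome sequence. No paired analysis was possible because the tables hold no values per library.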

Other observations

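The fitted use score of wild type at one and the same segment differed between the authors' deposited tables, although the labels give these tables the same early wild-type libraries. For Syt1 it ran from 23.5 to 33.9 over 4 early tables, for Dap160 from 34.9 to 43.9 and for Ace from 39.4 to 47.7. The dispersion of the Vmat segment was 0.000627 in elav-fne early and 0.0295 in elav-fne-rbp9 early in the authors' deposited tables, and the adjusted p was 6.2e-99 in the first and 1.2e-28 in the second, while the fold went from -1.98 to -3.47. The smaller p went with the fold nearer 0.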
